A study of Mus musculus with 2 samples.

Results

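The 39 protein-coding genes of the 4 mouse Hox clusters were examined in pooled slow and fast muscle fibres, out of 23454 genes with a matched array probe, 20093 of them protein-coding. A gene was taken where a probe's RefSeq accession belonged to a gene named Hoxa, Hoxb, Hoxc or Hoxd plus a number. All 39 such genes of the RefSeq table had a probe: 11 in Hoxa, 10 in Hoxb, 9 in Hoxc and 9 in Hoxd. Of the 46 probes, the one with the highest mean processed signal stood for its gene, a choice that arose for 7 genes.

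Hox genes encode homeodomain transcription factors and lie in clusters on different chromosomes, and genes of the same number in different clusters are paralogues. Low-numbered (anterior) genes act towards the head of the embryo and high-numbered (posterior) genes towards the tail. In the limb bud the posterior genes, above all those of the Hoxa and Hoxd clusters, pattern the segments from the upper limb to the digits, and many adult cells keep a Hox profile related to their place of origin.

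The slow pool held 1659 GFP-positive fibres from soleus muscles, and the fast pool 4447 GFP-negative fibres from extensor digitorum longus (EDL) muscles. The muscles came from 8 male mice aged 6 to 8 weeks, all GFP-Myh7 heterozygous (G/+), an allele that lights up fibres making slow myosin and that the fast pool carries as well. RNA of each pool was hybridised to 1 array of the same slide, and 1 tissue entry for the slow sample gives EDL, against soleus in its source name and the protocol. Fibre type and muscle of origin differ together and cannot be told apart.

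With 1 array per pool nothing was tested, and a size rule of 2-fold was used for description. Differences are log2 values, slow minus fast, after each array's signals were divided by their 75th percentile, 196 intensity units on the slow array and 183 on the fast array. The ± value is the scanner software's error, which covers neither animals, dissection nor labelling. Slow myosin Myh7 was 270-fold higher in slow fibres and fast myosin Myh4 2981-fold higher in fast fibres. All 6 slow-fibre markers passed the size rule towards slow fibres, and all 7 fast-fibre markers towards fast fibres.

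Promoter stretches are shown for neighbouring or same-cluster genes that passed the size rule on both arrays, so that the genes behind the main differences can be placed. Each is the 250 bases before the start site in RefSeq on GRCm38.p6, on the gene's strand; 22 of the 39 genes have a window. Hoxd8 and Hoxd9 were higher in slow fibres, and Hoxa5 and Hoxa13 higher in fast fibres. Capitals mark a minus-strand match to a motif of the Hox with Pbx type, TGATTNA.
Hoxd8, chr2:74704365-74704614, plus strand: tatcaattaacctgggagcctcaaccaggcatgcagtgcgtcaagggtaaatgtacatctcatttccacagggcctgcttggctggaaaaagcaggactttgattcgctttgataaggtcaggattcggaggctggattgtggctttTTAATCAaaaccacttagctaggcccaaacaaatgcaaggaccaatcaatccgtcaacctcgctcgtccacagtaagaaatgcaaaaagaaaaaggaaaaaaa
Hoxd9, chr2:74697513-74697762, plus strand: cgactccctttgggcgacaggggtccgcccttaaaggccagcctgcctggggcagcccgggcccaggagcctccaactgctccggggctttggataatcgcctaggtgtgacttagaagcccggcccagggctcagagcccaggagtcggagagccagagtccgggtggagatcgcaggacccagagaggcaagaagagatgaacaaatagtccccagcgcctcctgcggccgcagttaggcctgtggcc
Hoxa5, chr6:52204588-52204837, minus strand: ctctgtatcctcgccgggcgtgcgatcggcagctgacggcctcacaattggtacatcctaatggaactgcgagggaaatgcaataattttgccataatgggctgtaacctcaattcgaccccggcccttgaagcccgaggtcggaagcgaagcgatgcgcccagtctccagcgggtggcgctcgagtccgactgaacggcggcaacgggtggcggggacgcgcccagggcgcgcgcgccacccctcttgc
Hoxa13, chr6:52260881-52261130, minus strand: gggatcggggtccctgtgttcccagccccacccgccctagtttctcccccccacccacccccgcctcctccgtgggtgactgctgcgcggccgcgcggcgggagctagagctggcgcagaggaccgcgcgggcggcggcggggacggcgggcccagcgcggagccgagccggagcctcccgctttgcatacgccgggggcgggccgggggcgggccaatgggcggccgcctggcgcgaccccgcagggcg

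GC content was 44.4% in the Hoxd8 stretch, 65.2% in Hoxd9, 63.6% in Hoxa5 and 80.0% in Hoxa13. Windows of 300 bases, reaching 50 bases past the start, were searched on both strands. The Hox with Pbx motif began 103 bases before the start of Hoxd8 and was in none of the other 3 windows. It was in 10.3% of all 32851 promoter windows and in 4 of 24 Hox windows. The posterior Hox motif TTTATNG was in 10.9% of all windows and in 2 Hox windows. Its second form TTTACNA was in 8.7% of all windows and in 3 Hox windows. The homeodomain core TAATTA was in 5.29% of all windows and in 2 Hox windows. The Meis type motif TGACAG was in 19.2% of all windows and in 2 Hox windows. None of these 4 was in the windows shown, and a match or its absence describes letters only.

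Of the 24 Hox genes flagged in either pool, 19 were flagged in both, against 12131 of 13645 over all protein-coding genes. The scanner's flag put 21 of 39 well above background in slow fibres (53.8%, against 62.9% of protein-coding genes) and 22 in fast fibres (56.4%, against 65.4%). Of the 39, 2 were flagged in slow fibres only (Hoxa6 and Hoxc5) and 3 in fast fibres only (among them Hoxb4 and Hoxb5). Over all 20093 protein-coding genes, 513 (2.55%) were flagged in slow fibres only and 1001 (4.98%) in fast fibres only. The 15 genes flagged in neither pool read 1.84 to 6.36 intensity units in slow fibres and 1.52 to 8.85 units in fast fibres. The lowest signal flagged anywhere on the array was 8.81 units for slow fibres and 7.21 units for fast fibres. Of the 15, Hoxd13 in fast fibres lay over that lowest signal without the flag, and Hoxa2, Hoxb2 and Hoxd10 had a positive and significant signal in both pools by the scanner's weaker flag. A gene without the flag is not shown to be silent.

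**Figure D1:**
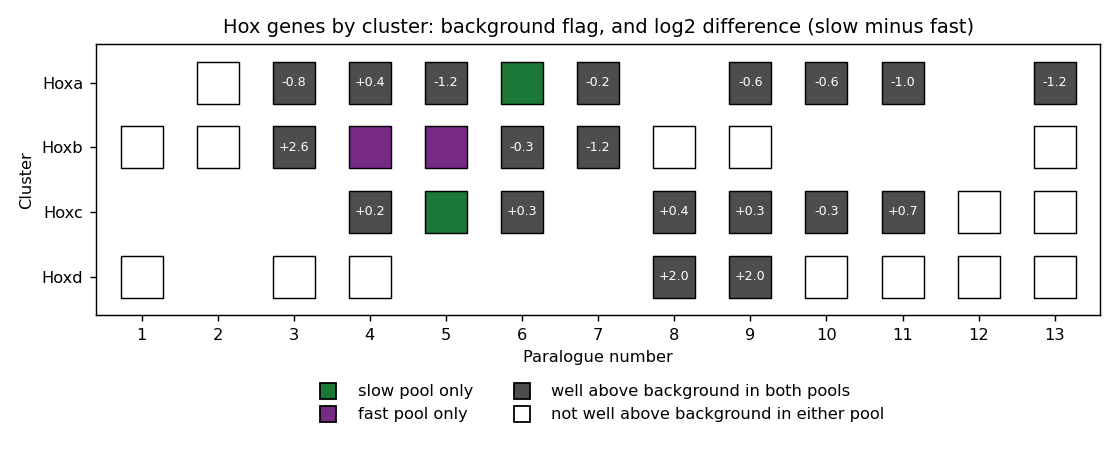
Hox genes by cluster (rows) and paralogue number (horizontal axis). Fill shows in which pool (1 array each) a gene was well above background, and the figure in a grey square is the log2 difference, slow minus fast; Hoxb squares are filled from number 3 to 7 and Hoxd squares at 8 and 9.

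The detected stretch differed by cluster. Hoxa had 9 of 11 genes well above background in slow fibres and 9 in fast fibres, and Hoxc had 7 of 9 in slow fibres and 6 in fast fibres. Hoxb had 3 of 10 in slow fibres and 5 in fast fibres, all numbered 3 to 7, and Hoxd had the same 2 of 9 in each pool, the neighbours Hoxd8 and Hoxd9. Anterior genes (numbers 1 to 3) were well above background in 2 of 8 cases in slow fibres and 3 in fast fibres, central genes (4 to 8) in 11 of 15 in each pool, and posterior genes (9 to 13) in 8 of 16 in each pool. No gene numbered 2 or 12 was flagged, and of number 13, Hoxa13 was flagged in both pools while Hoxb13, Hoxc13 and Hoxd13 were in neither.

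Among the 24 genes flagged in either pool, the size rule was passed in both directions. Towards slow fibres there were 4 (16.7%, against 10.7% of all genes flagged in either pool): Hoxb3, Hoxc5, Hoxd8 and Hoxd9. Towards fast fibres there were 5 (20.8%, background 14.3%), among them Hoxa5, Hoxa13, Hoxb4 and Hoxb7. Of the 19 genes flagged in both pools, 9 had a difference above 0 (background 52.9%) and 10 below 0 (background 47.1%), with a median of -0.19 against 0.05 over all genes. Hoxb7 at -1.21 lay just inside the size rule, and Hoxa11, 1.99-fold higher in fast fibres, just outside it. Under spike-in scaling and under both normexp background corrections 0 of the 5 passed towards fast fibres. Under both normexp corrections the genes passing towards slow fibres were Hoxb3 and Hoxd8. These corrections add an offset of 50 units to each signal, which by arithmetic draws the differences of dim genes towards 0.

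**Figure D2:**
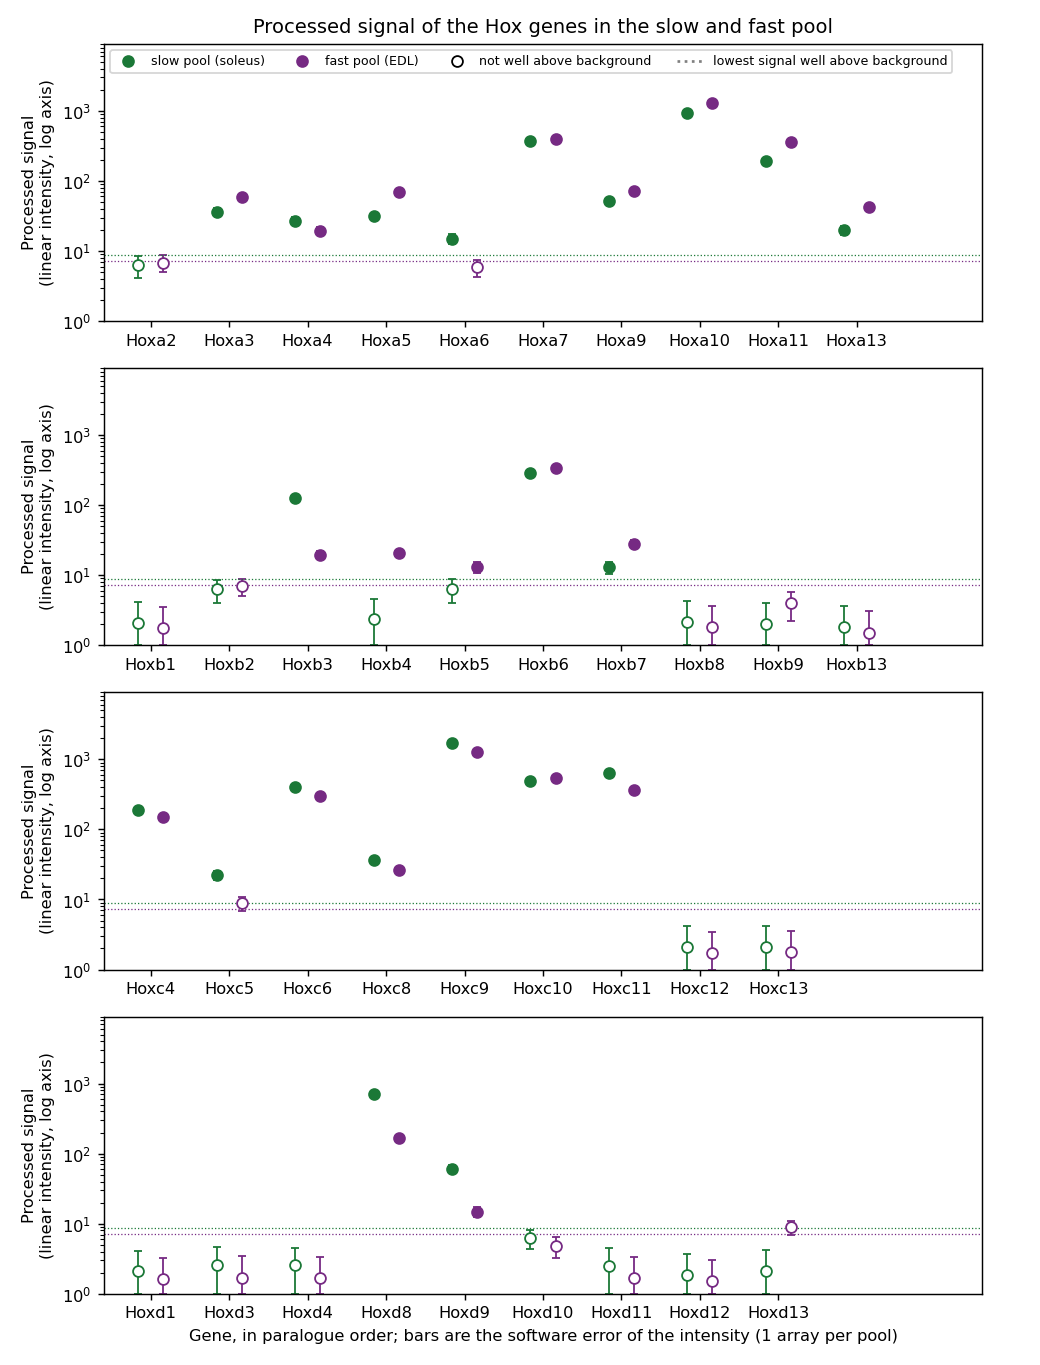
Processed signal of the Hox genes (linear intensity on a log axis, before scaling between arrays), slow pool left of fast pool, 1 panel per cluster. Bars are the software error, cut at 1 unit, open circles are signals not well above background, and dotted lines mark the lowest signal well above background on each array; Hoxd8 and Hoxd9 lie higher in the slow pool, at 711 and 61.3 units, against 169 and 14.7 units in the fast pool.

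The Hoxd cluster, on chromosome 2, was measured at its middle only. Hoxd8, a central gene, had 711 intensity units in slow fibres, against 169 units in fast fibres, a log2 difference of 1.97 ± 0.20 or 3.91-fold. A second Hoxd8 probe read 137 units in slow fibres and 29.2 units in fast fibres, a difference of 2.14. Hoxd9, which acts with its paralogues in the limb, had 61.3 units in slow fibres, against 14.7 units in fast fibres, a difference of 1.96 ± 0.28 or 3.89-fold. These neighbouring genes thus differed by about the same amount in the same direction. Over 9 ways of scaling and background correction the Hoxd8 difference lay between 1.68 and 2.39, and that of Hoxd9 between 0.53 and 2.38. The lowest Hoxd9 value came with normexp background correction and the 75th percentile.

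The other 7 Hoxd genes were not well above background in either pool. Hoxd10, a posterior gene active in the developing hind limb, read 6.33 units in slow fibres and 4.84 units in fast fibres. Hoxd13, a digit gene, read 2.11 units in slow fibres and 8.85 units in fast fibres without the flag. Hoxd1, Hoxd3, Hoxd4, Hoxd11 and Hoxd12 read 1.84 to 2.55 units in slow fibres and 1.52 to 1.70 units in fast fibres. Hoxd3 overlaps Hoxd4 in RefSeq, and Hoxd10 overlaps Hoxd11.

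The Hoxa cluster, on chromosome 6, leaned towards fast fibres. Of its 8 genes flagged in both pools, 7 had a difference below 0 (background 47.1%), with a median of -0.69. Under spike-in scaling, which put the median of all genes at 0.47, 6 of 8 lay below 0. Hoxa5, known for its part in lung and axial skeleton, had 31.2 units in slow fibres, against 68.5 units in fast fibres, a difference of -1.24 ± 0.22 or 2.36-fold higher in fast fibres. Hoxa13, which patterns the hand and foot, had 19.7 units in slow fibres, against 42.9 units in fast fibres, a difference of -1.22 ± 0.25. Hoxa11, which patterns the middle limb segment, had 192 units in slow fibres and 357 units in fast fibres. All 4 posterior Hoxa genes were thus lower in slow fibres, though 1 passed the size rule. Hoxa10, which acts in the upper hind limb and the uterus, had 935 units in slow fibres and 1297 units in fast fibres, a difference of -0.57 ± 0.20, and its second probe gave -0.59. Hoxa9, best known from blood stem cells and leukaemia, had 52.1 units in slow fibres and 71.6 units in fast fibres, a difference of -0.56, with -0.41 from its second probe.

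Of the anterior and central Hoxa genes, Hoxa3, which acts in the pharyngeal organs, had 36.2 units in slow fibres and 59.0 units in fast fibres, a difference of -0.80 ± 0.23. The other Hoxa3 probe was flagged in neither pool. Hoxa7 had 366 units in slow fibres and 391 units in fast fibres, a difference of -0.19 that is within its software error of 0.20. Hoxa4 was the exception in direction, with 27.0 units in slow fibres and 19.4 units in fast fibres, a difference of 0.38 ± 0.27. Hoxa6 read 15.0 units in slow fibres and 5.87 units in fast fibres without the flag, a bound of at least 1.93-fold towards slow fibres, which misses the size rule. A bound sets the flagged signal against the lowest signal flagged on the other array, or the gene's own where higher. Hoxa2, the gene of the hindbrain and middle ear, read 6.35 units in slow fibres and 6.83 units in fast fibres, flagged in neither. Hoxa3 overlaps Hoxa4, Hoxa5 and Hoxa6 in RefSeq by the span of the whole genes. Whether their probes lie in shared stretches, and so how far their signals can be told apart, was not tested.

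The Hoxc cluster, on chromosome 15, leaned the other way. Of its 6 genes flagged in both pools, 5 had a difference above 0 (background 52.9%), with a median of 0.32. Under spike-in scaling 6 of 6 lay above 0, but that scaling moved all genes towards slow fibres, to a median of 0.47. Hoxc11, a gene of the hind limb and tail region, had 643 units in slow fibres, against 366 units in fast fibres, a difference of 0.71 ± 0.20 or 1.64-fold. Hoxc9, which sets thoracic identity in motor neurons, had 1685 units in slow fibres and 1265 units in fast fibres, a difference of 0.31 ± 0.20. Hoxc10, which acts at hind-limb level, was the exception, with 488 units in slow fibres and 548 units in fast fibres, a difference of -0.27. None of these posterior genes passed the size rule. Hoxc4 had 187 units in slow fibres and 151 units in fast fibres, a difference of 0.20, within its software error of 0.21. Hoxc6, a thoracic-level gene, had 405 units in slow fibres and 303 units in fast fibres, a difference of 0.32. Hoxc8, known for its part in brachial motor neurons and ribs, had 36.5 units in slow fibres and 26.2 units in fast fibres, a difference of 0.38. Hoxc5 read 22.1 units in slow fibres and 8.86 units in fast fibres without the flag, 2.32-fold higher in slow fibres. Its fast signal lay over the lowest flagged on that array, so the bound is the plain difference, 1.22 ± 0.39, and no lower limit. Hoxc12 and the hair and nail gene Hoxc13 were flagged in neither pool.

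The Hoxb cluster, on chromosome 11, was mixed. Hoxb3 had 125 units in slow fibres, against 19.6 units in fast fibres, a difference of 2.57 ± 0.23 or 5.95-fold, but its second probe read 14.2 units in slow fibres and 16.9 units in fast fibres, a difference of -0.35. The probes of Hoxb3 thus point in opposite directions, both being well above background in both pools, and RefSeq Hoxb3 overlaps Hoxb4. Hoxb7 had 13.01 units in slow fibres, against 28.1 units in fast fibres, a difference of -1.21 ± 0.33. Hoxb4, known for expanding blood stem cells, read 2.37 units in slow fibres without the flag and 20.7 units in fast fibres, at least 2.52-fold higher in fast fibres. Hoxb5 read 6.40 units in slow fibres without the flag and 12.98 units in fast fibres, a bound of 1.58-fold that misses the size rule. Hoxb6 had 285 units in slow fibres and 335 units in fast fibres, a difference of -0.34. Hoxb1, Hoxb2, Hoxb8, Hoxb9 and Hoxb13 were flagged in neither pool.

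**Figure D3:**
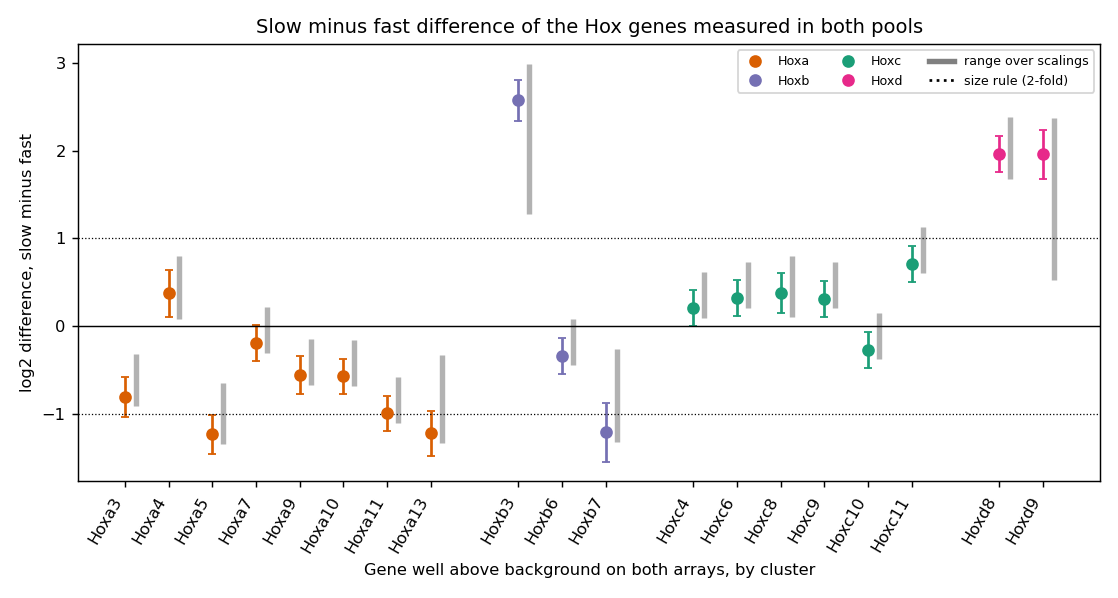
Log2 difference, slow minus fast, of the 19 Hox genes flagged in both pools, coloured by cluster, with bars for the software error and grey bars for the range over 9 ways of scaling and background correction. Dotted lines mark 2-fold; 7 of 8 Hoxa points lie below 0, 5 of 6 Hoxc points above it, and Hoxa7, Hoxb6 and Hoxc10 have ranges that cross 0, through spike-in scaling.

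A constant shift between the arrays cancels when differences of paralogues are set against each other, but a change of background correction does not. Hoxd9 exceeded Hoxa9 by 2.52 ± 0.35 log2 units and Hoxc9 by 1.65 ± 0.35, and Hoxc9 exceeded Hoxa9 by 0.87 ± 0.30. Under normexp with the 75th percentile, Hoxd9 exceeded Hoxa9 by 0.87 and Hoxc9 by 0.19. Hoxc11 exceeded Hoxa11 by 1.71 ± 0.29, Hoxd8 exceeded Hoxc8 by 1.59 ± 0.31 and Hoxc6 exceeded Hoxb6 by 0.66 ± 0.29. The number 10 and number 4 pairs lay close together: Hoxc10 minus Hoxa10 was 0.30 ± 0.29 and Hoxc4 minus Hoxa4 was -0.17 ± 0.34. Hoxb7 minus Hoxa7 was -1.02 ± 0.39, and -0.12 under normexp with quantile normalization. Hoxb3 minus Hoxa3 was 3.38 ± 0.33 with the brighter Hoxb3 probe, and 1.62 under normexp with quantile normalization. The Hoxc median exceeded the Hoxa median by 1.004 log2 units, and by 0.52 to 1.004 over the 9 scalings.

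Markers of cells other than fibres also differed between the pools, mostly towards fast fibres. Over all genes flagged in a pool, 10.7% passed the size rule towards slow fibres and 14.3% towards fast fibres. Of 10 fibroblast and fibro-adipogenic markers, all flagged in a pool, 8 passed the size rule towards fast fibres and 0 towards slow fibres, and their summed signal was 41.1 times the array's 75th percentile in the slow pool and 163 times in the fast pool. Of 8 endothelial markers 7 did so, with sums of 12.1 in the slow pool and 37.0 in the fast pool, and of 5 Schwann cell markers 4, with sums of 1.52 in the slow pool and 4.66 in the fast pool. Immune markers summed to 4.13 in the slow pool and 15.8 in the fast pool, with Ptprc and Adgre1 flagged in neither, and 2 of the 3 flagged passed towards fast fibres. Satellite cell markers summed to 5.92 in the slow pool and 5.77 in the fast pool, with Myf5 and Calcr flagged in neither, and 2 of the 4 flagged passed towards fast fibres. Of these sums, Cdh15 alone made up 5.47 in the slow pool and 4.53 in the fast pool. Tendon markers summed to 19.5 in the slow pool and 7.65 in the fast pool, of which 1 of 4 passed towards slow fibres and 2 towards fast fibres. Scx alone made up 18.7 in the slow pool and 4.52 in the fast pool, and the other 3 tendon markers summed to 0.815 in the slow pool and 3.14 in the fast pool. Smooth muscle and pericyte markers summed to 703 in the slow pool and 774 in the fast pool, with 1 of 6 towards slow fibres and 3 towards fast fibres. Acta2 alone made up 699 in the slow pool and 765 in the fast pool. Its chosen probe read 136890 units in the slow pool and 139689 units in the fast pool. Each of its other probes read at most 1653 units in the slow pool and 1554 units in the fast pool. Without Acta2 the smooth muscle and pericyte markers summed to 4.50 in the slow pool and 9.21 in the fast pool. The part of these cells in the Hox differences was not tested, and in pooled RNA fewer cells of a type and less RNA per cell cannot be told apart.

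TALE homeodomain proteins bind DNA together with Hox proteins. Of 11, Pbx4 was flagged in neither pool, and of the other 10, 1 passed the size rule towards slow fibres (10%, against 10.7% of all genes) and 4 towards fast fibres (40.0%, against 14.3%). The median of the 9 flagged in both pools was -0.35, or 0.07 under spike-in scaling, against 0.05 and 0.47 over all genes. Meis1, a Hox partner in limb and blood, had 474 units in slow fibres, against 116 units in fast fibres, 3.82-fold higher in slow fibres. The repressors Tgif1 and Tgif2 gave differences of -1.57 and -1.70.

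**Figure D4:**
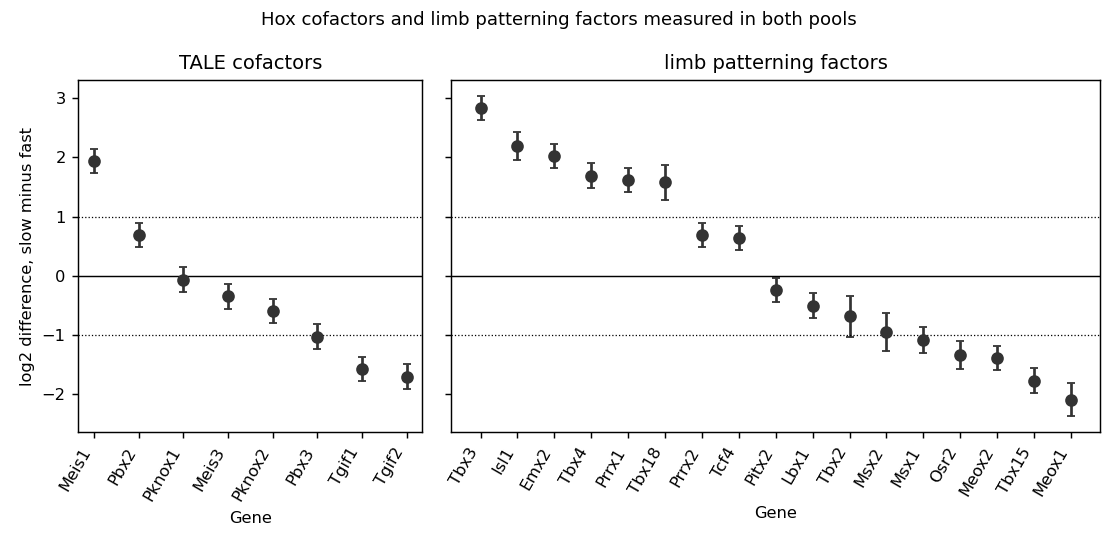
Log2 difference, slow minus fast, of the TALE cofactors (left) and limb patterning factors (right) shown here, flagged in both pools and ordered by value, with bars for the software error and dotted lines at 2-fold. Meis1 lies at 1.93 and Tbx3 at 2.83, while Tgif2 lies at -1.70 and Meox1 at -2.09. Tcf4 on the right is the E-protein gene, not the limb factor Tcf7l2.

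Of 27 limb patterning factors, 22 were flagged in a pool, of which 6 passed the size rule towards slow fibres (27.3%, against 10.7% of all genes) and 8 towards fast fibres (36.4%, against 14.3%). The median of the 17 flagged in both pools was -0.24, and 0.18 under spike-in scaling, against 0.05 and 0.47 over all genes. The list holds Tcf4, the E-protein gene of that symbol, and not Tcf7l2, the limb connective tissue factor also called TCF4. Tbx3, a T-box factor of the limb margins, had 1693 units in slow fibres, against 222 units in fast fibres, 7.12-fold higher in slow fibres, and its second probe gave 2.99. Isl1, which acts at the start of hind-limb growth, had 104 units in slow fibres and 21.2 units in fast fibres, a difference of 2.19, while its second probe was flagged in neither pool. Osr1, a factor of limb connective tissue, read 2.66 units in slow fibres without the flag and 59.9 units in fast fibres, a bound of 7.30-fold, and Meox1, a somite factor, gave -2.09. Of the factors that mark fore and hind limb, which were named after their values were seen, the hind-limb gene Tbx4 had 201 units in slow fibres and 58.0 units in fast fibres, and the forelimb gene Tbx5 and the hind-limb gene Pitx1 were flagged in neither pool.

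Polycomb proteins keep Hox genes shut and trithorax proteins keep them open. Of 28 Polycomb genes flagged in a pool, 3 passed towards slow fibres (10.7%, the same as the 10.7% of all genes) and 3 towards fast fibres (10.7%, against 14.3%). The median of the 27 flagged in both pools was 0.23, or 0.65 under spike-in scaling. Over all genes the median was 0.05, and 0.47 under spike-in scaling, which also applies to the lists below. Rnf2, the ubiquitin ligase of the first Polycomb complex, was 2.35-fold higher in slow fibres, with 1.03 and 0.65 log2 units from its other probes. Cbx2, which reads the Polycomb histone mark, was flagged in slow fibres only and was 2.55-fold higher there. That bound is its plain difference, 1.35 ± 0.39 log2 units, and no lower limit. Jarid2 and Phf19, accessory subunits of the second complex, gave -1.07 and -1.43. Of 17 trithorax genes and demethylases, 2 passed towards slow fibres (11.8%, against 10.7% of all genes) and 1 towards fast fibres (5.88%, against 14.3%), with a median of 0.24, or 0.66 under spike-in scaling. Ash2l and Setd1b, of the methyltransferase complexes that mark active genes, each gave 1.40, and the demethylase Kdm6b gave -1.86. Of 14 other Hox regulators, the Cdx1, Cdx2 and Cdx4 genes, which switch on Hox genes in the embryo's trunk, were flagged in neither pool, and of the other 11, 1 passed towards slow fibres (9.09%, against 10.7% of all genes) and 2 towards fast fibres (18.2%, against 14.3%). The median of the 10 flagged in both pools was -0.11, or 0.31 under spike-in scaling. Gmnn, which binds Hox and Polycomb proteins, gave 1.91, and the hindbrain Hox activator Egr2 gave -2.65.

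Other transcripts of the clusters and the 3 nearest protein-coding genes on each side were read for comparison. Within Hoxd, the antisense transcript Hoxd3os1 had 26.4 units in slow fibres and 8.93 units in fast fibres, 2.75-fold higher in slow fibres, and the noncoding Haglr gave -0.17. Beside Hoxd, Mtx2, a mitochondrial import gene, was 2.34-fold higher in slow fibres, with 1.24 log2 units from its second probe. Evx2 gave -0.24, Lnpk -0.31, Hnrnpa3 0.08 and Atp5g3 0.04. A second, dimmer Evx2 probe read 5.19 units in slow fibres without the flag and 12.1 units in fast fibres. Of the genes beside Hoxd, Mtx2 alone passed the size rule. Within Hoxa, Hoxa11os gave -0.55, Mira -0.27 and Hoxaas3 -0.09. Beside Hoxa, Skap2 gave -1.49 and Snx10 -1.85, both past the size rule towards fast fibres, Evx1os passed it towards slow fibres with a bound of 2.01-fold, and Cbx3 gave -0.18, Hibadh -0.05 and Tax1bp1 -0.08. Evx1 and the noncoding Hottip were flagged in neither pool. Within Hoxb, Hoxb5os gave -0.30, and beside it Cbx1 gave -0.38, Snx11 -0.08 and Atp5g1 0.04. Beside Hoxc, the 8 measured genes lay between -0.24 at Cbx5 and 0.55 at Calcoco1, with Smug1 at 0.46, Atp5g2 at 0.32, Atf7 at 0.22, Gm28876 at 0.14, Hnrnpa1 at 0.10 and Cistr at -0.11.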

How the data were processed

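The deposited spot values are Cy3 intensity units. Per the submitters' processing notes they came from Agilent Feature Extraction 12.0.3.1, which, per the file headers, subtracted background and a spatial trend on each array and did not scale the arrays to each other. The 2 arrays, 1 per pool, were labelled from 0.1 µg of total RNA each, per the labels' protocols. A deposited value table holds the same intensities times 2.45 for the slow array and 2.83 for the fast array (medians 27.1 and 30.1). What that factor scales to is not given in the sources used here.

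Of 59305 non-control spots, 159 with outlier flags were left out, and repeated spots were averaged to 56596 probes. Accessions matched RefSeq for 33758 probes (59.6%). Signals were divided by each array's 75th percentile over non-control spots and put on a log2 scale. Spots well above background made up 50.9% on the slow array and 52.3% on the fast array, and 0 were saturated. The number of arrays limits the precision, and the technical errors given here do not measure that limit. Repeated spots differed with a median SD of 0.05 log2 units, and the software error of the 19 Hox differences was 0.20 to 0.33. For the bright gene Hoxc9 the software error was 10.0% of the signal on each array. Summed marker signals are in units of the 75th percentile. Spike-in scaling used 8 of 10 controls. Background correction with normexp took the median spot and local background signals, in limma 3.58.1 under R 4.3.3. An offset of 50 intensity units was added to each corrected signal.

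Hox members, gene lists and the naming rule were chosen with earlier results of these data known. The rule named all Hox genes, and of each other list at most the 2 highest and 2 lowest past 2-fold. A few genes are counted but not reported here by name, in the text or in the figures. Neighbouring genes were named where flagged in a pool. Evx1, Hottip and Tcf4 were named besides, after their values were seen. Mir100hg lies outside the clusters and was left out. Calls of genes flagged on both arrays were tested on simulated data, where a plain cut on signal stood in for the scanner's slow-array flag. The scanner's flag itself, and calls near 2-fold or from bounds, were not tested.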

Additional observations from a re-analysis of the deposited data

How the results depend on the processing

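No paired analysis was possible because each pool has 1 array, and for the same reason no array could be left out. The count of Hox genes past the size rule towards fast fibres was 5, and it was 0 under spike-in scaling, under both normexp settings and under a 3-fold rule. It was 8 with no filter on dim probes and with a 1.5-fold rule, and 3 over genes flagged on both arrays. Under quantile normalization, loess, the 75th percentile over probes flagged on both arrays and the authors' table it was 6, because Hoxa11 then passed. The count towards slow fibres was 4, and it was 2 under both normexp settings, 6 under spike-in scaling and with a 1.5-fold rule, 5 with no filter, and 3 over genes flagged on both arrays and with a 3-fold rule. The median Hox difference of -0.19 was 0.22 under spike-in scaling. With no filter it was 0.14, over all 39 genes, of which 15 were flagged in neither pool. The Hoxa median of -0.69 was -0.27 under spike-in scaling, -0.32 under normexp with quantile normalization and -0.35 under normexp with the 75th percentile. The Hoxc median of 0.32 was 0.73 under spike-in scaling, 0.21 with the authors' table and 0.20 after normexp and quantile normalization. Spike-in scaling moved the median of all genes by 0.42, and then 3109 genes passed towards slow fibres and 1318 towards fast fibres, against 1569 and 2098. Normexp with quantile normalization gave 773 genes towards slow fibres and 990 towards fast fibres, and normexp with the 75th percentile 811 and 956. Of the 24 Hox genes flagged in a pool, 21 moved by more than their software error under spike-in scaling. The count was 15 under normexp with quantile normalization and 16 under normexp with the 75th percentile. The offset of the normexp settings by arithmetic draws the differences of dim genes towards 0, and its share in the moves was not tested. Hoxb3 and Hoxd8 passed 2-fold under all 9 scalings, while the median over both Hoxb3 probes was 1.11. With the positive-and-significant flag, 31 Hox genes in slow fibres and 29 in fast fibres were above background.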
